A study of Homo sapiens with 56 samples.

Results

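The genes described here encode the proteasome, the large protease that degrades ubiquitin-tagged proteins in the cytosol and nucleus. They came from a list of 42 symbols grouped by place in the complex: 7 alpha subunits (PSMA1 to PSMA7), 7 constitutive beta subunits (PSMB1 to PSMB7), 3 immunoproteasome beta subunits (PSMB8 to PSMB10), 6 ATPases (PSMC1 to PSMC6), 3 further base subunits (PSMD1, PSMD2, PSMD4), 8 lid subunits, 3 base assembly chaperones (PSMD5, PSMD9, PSMD10), 4 activators (PSME1 to PSME4) and the maturation factor POMP. The rule goes by place in the complex and uses no measured value. Of the 42, 39 were found among the 16485 gene identifiers of the first deposited table and 39 among the 16454 of the second, and PSMC4, PSME1 and PSME2 were not analysed here.

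Transcripts of 7 established cell lines from human colorectal cancer were sequenced in a study of how a metabolite of cancer-associated bacteria modulates chemotherapy. The labels give all lines as wild-type epithelial cells of the colon, and no chemotherapy drug is named for any library. In each line, 4 libraries from cells given 10 mM 2-methylisocitrate (2-MiCit), an intermediate of the bacterial methylcitrate cycle, were compared with 4 libraries from cells given the vehicle, water. The first table holds HCT116, DLD1, LoVo and SW948, and the second holds HT29, SKCO1 and SW1417. The labels do not say whether the 4 libraries of a group came from separate cultures, and p-values therefore refer to the scatter among these libraries, part of which could be technical.

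The 20S core of the proteasome is a barrel of alpha rings, which gate the entrance, around beta rings, which hold the proteolytic sites. The 19S regulatory particle caps the barrel: its ATPases unfold and feed in substrates, its lid removes ubiquitin, and other base subunits bind ubiquitin or its shuttle proteins. Inflammatory signals, above all interferon gamma, replace the constitutive catalytic subunits PSMB6, PSMB7 and PSMB5 by PSMB9, PSMB10 and PSMB8, which form the immunoproteasome. The constitutive genes are known to be induced together by the transcription factor NFE2L1 through antioxidant response elements when proteasome capacity falls short.

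Total counts per library (M for mega) ran from 13.8 M to 19.4 M in HCT116, DLD1, LoVo and SW948 and from 29.1 M to 45.4 M in the other 3 lines, so the lines of the second table were measured with smaller counting error. The proteasome genes held 0.449% to 0.88% of a library's counts in the first table and 0.467% to 0.583% in the second. Summed epithelial markers reached 4680 to 16600 CPM (counts as a rate of the library total, in the usual unit, with scaling factors set within each line), while KRT20 and CDX1 were at 0 in all HCT116 libraries and CDX1 in all DLD1 libraries. Fibroblast markers summed to at most 23.1 CPM, but only 3 of the 8 listed were found in the first table and 2 in the second. The leukocyte list was high in HT29 and SW948 through LYZ, at 1741 and 1018 CPM in control, a gene that intestinal epithelium also expresses.

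Promoters of proteasome genes were searched for 3 short motifs, because the genes moved together in HCT116. RefSeq gave a promoter (250 bases before to 50 after the start, GRCh38.p14) for 37 of the 42 genes and for 27305 genes in all, and both strands were read. The antioxidant response element core, TGACNNNGC, was present in 11 of the 37 (29.7%, against 13.6% of all promoters), the CCAAT box, CCAAT, in 17 (45.9% against 35.7%) and the interferon-stimulated response element core, GAAANNGAAA, in 5 (13.5% against 3.65%). The windows below hold 15 bases on each side of a match in capitals, and are read 5′ to 3′ on the gene's strand. They show the antioxidant core of 4 genes of the regulatory particle or its assembly, at chr17:39980755-39980793 (+), chr17:67366719-67366757 (-), chr9:120843033-120843071 (-) and chr12:121888673-121888711 (+), then a CCAAT box at chr14:58244793-58244827 (+, on the opposite strand) and at chr1:109426483-109426517 (-), then the interferon core of PSMB4 at chr1:151399490-151399529 (+).
PSMD3: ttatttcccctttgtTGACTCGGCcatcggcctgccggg
PSMD12: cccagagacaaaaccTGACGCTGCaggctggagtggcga
PSMD5: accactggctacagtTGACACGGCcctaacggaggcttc
PSMD9: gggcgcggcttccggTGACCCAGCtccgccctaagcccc
PSMA3: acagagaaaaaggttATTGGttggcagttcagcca
PSMA5: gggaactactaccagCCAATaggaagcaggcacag
PSMB4: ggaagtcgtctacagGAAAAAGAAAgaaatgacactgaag
A match describes these letters and is not a bound site. In HCT116, the median log2 fold change was -0.49 over the 7 tested genes with an antioxidant core and -0.49 over the 25 without one. It was -0.50 over the 16 tested genes with a CCAAT box and -0.44 over the 16 without.

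In HCT116, a colorectal line in which 2-MiCit changed many transcripts, proteasome genes of every subcomplex tested fell, by 12.1% to 39.9% where called. Of the 37 that passed the filter on low counts, 34 were lower and 0 higher at an adjusted p below 0.05 (edgeR quasi-likelihood test, adjusted over all genes), against 18% of all tested genes lower and 19% higher. DESeq2 called 35 lower and 0 higher, and 0 were higher at an unadjusted p below 0.05. The median log2 fold change of the 37 was -0.45, with a range of -0.73 to -0.01, and that of all tested genes was 0.03. CPM are relative to the other transcripts of a library and do not give transcripts per cell. In bulk RNA, a lower share of these transcripts in all cells and their loss from a part of the cells cannot be told apart. The 3 genes not called were PSMB3, PSMD10 and PSME4, and the counts of PSMB3 are uncertain as described below.

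The 4 called genes with the largest falls in HCT116 all belong to the regulatory particle. The margin was small: the log2 fold change was -0.57 for PSMC2 and -0.56 for PSMB2 and PSMB10 of the core. PSMD13, a lid subunit (ENSG00000185627, chromosome 11, 236546 to 252984, GRCh38), had 305, 276, 280 and 262 CPM in the 4 control libraries and 174, 156, 183 and 162 CPM in the 4 with 2-MiCit. All treated libraries lay below all controls, and PSMD13 fell by 39.9% (log2 fold change -0.73 ± 0.07 SE, adjusted p = 3.92e-05). PSMC1, an ATPase that opens the core's gate (ENSG00000100764, chromosome 14, 90256495 to 90275429), went from 288, 288, 298 and 292 CPM to 192, 174, 212 and 187 CPM. The groups did not overlap and PSMC1 fell by 34.4% (adjusted p = 6.59e-05), although 13 pseudogenes carry its name and could share its reads. PSMD1, the largest base subunit (ENSG00000173692, chromosome 2, 231056864 to 231172827), went from 342, 366, 374 and 383 CPM to 234, 241, 256 and 248 CPM. It fell by 33.2% (adjusted p = 3.71e-05), again without overlap. PSMC2, another ATPase, fell by 32.7%, from 189 ± 1.78 to 127 ± 10.3 CPM (mean ± SD of 4 libraries in each group; adjusted p = 8.32e-05). PSMD14, the metalloprotease of the lid that cuts ubiquitin chains off substrates (ENSG00000115233, chromosome 2, 161308038 to 161411717), had 255, 255, 248 and 252 CPM in control and 173, 169.6, 187 and 159.5 CPM with 2-MiCit. The highest treated library was well under the lowest control, and PSMD14 fell by 31.8% (adjusted p = 6.02e-05). All 5 tested ATPases, all 3 base subunits and all 8 lid subunits were lower in HCT116, with fold changes on the log2 scale of -0.61 to -0.45, -0.58 to -0.38 and -0.73 to -0.36.

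**Figure D1:**
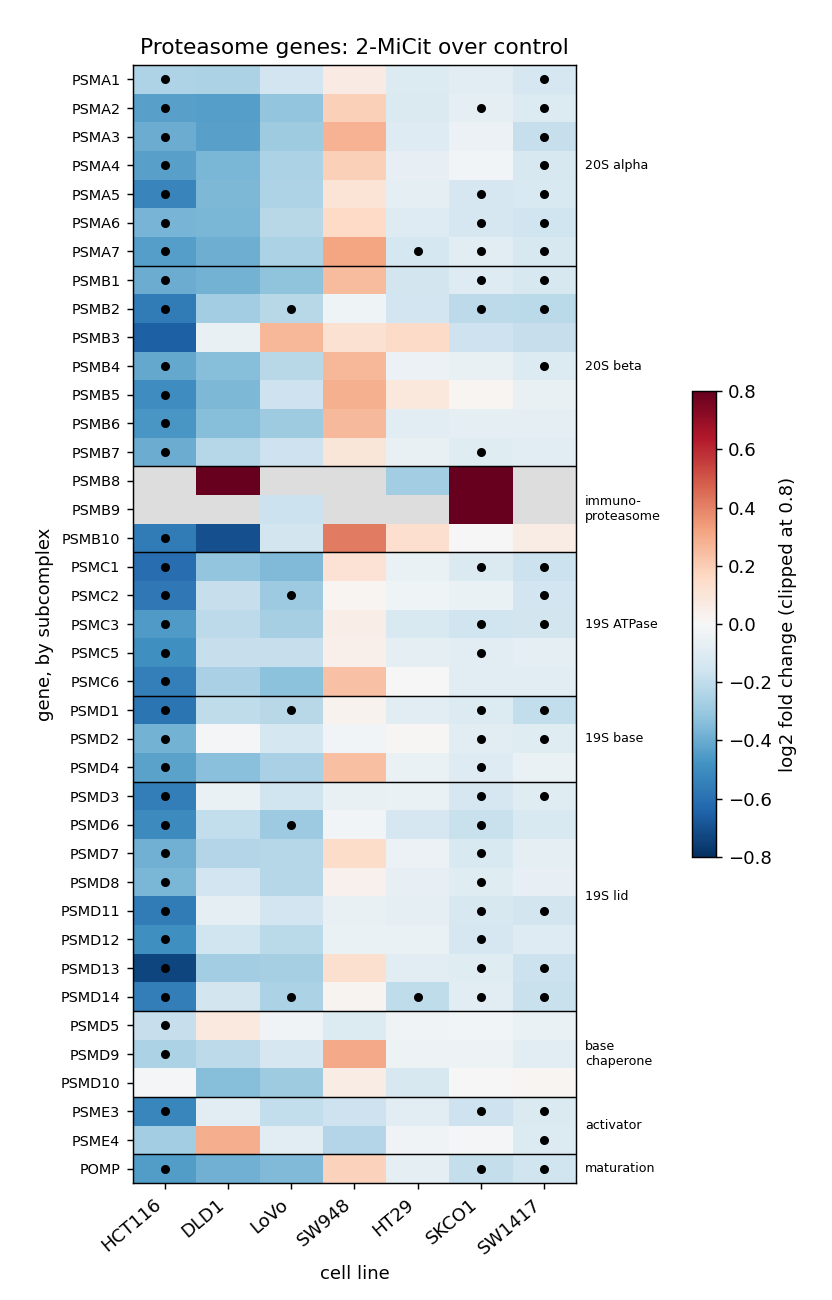
Log2 fold change of 2-MiCit over control for the 39 proteasome genes found in the tables (rows, by subcomplex) in 7 lines (columns), with the colour scale clipped at 0.8, grey where a gene was not tested and a dot where it was called at an adjusted p below 0.05. Dots fill 34 cells of the HCT116 column, 23 of SKCO1 and 22 of SW1417, and none of DLD1 or SW948.

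The 20S core fell as well in HCT116. All 7 alpha subunits were lower, from -0.53 for PSMA5 to -0.25 for PSMA1 on the log2 scale, and 6 of 7 constitutive beta subunits were. PSMB5, the chymotrypsin-like protease and the site that bortezomib blocks (ENSG00000100804, chromosome 14, 23016543 to 23035230), went from 258, 227, 216 and 215 CPM to 178, 141, 174 and 156 CPM. The groups were separate, and PSMB5 fell by 29.1% (log2 fold change -0.50 ± 0.08 SE, adjusted p = 0.00131). PSMB6, the caspase-like protease, fell by 27.5%, from 192 ± 16.1 to 139 ± 16.5 CPM (mean ± SD of 4 libraries in each group; adjusted p = 0.00254). PSMB7, the trypsin-like protease, fell by 24.1%, from 237 ± 10.3 to 179.6 ± 16.5 CPM (adjusted p = 0.0014). PSMB2, a structural beta subunit, went from 296, 285, 277 and 277 CPM to 199, 193, 202 and 176 CPM (adjusted p = 5.74e-05), a fall of the same order as in the lid and without overlap. PSMA7, an alpha subunit (ENSG00000101182, chromosome 20, 62136735 to 62143440), fell by 26.3%, from 349.9 ± 25.6 to 258 ± 30.6 CPM (adjusted p = 0.00275). POMP, the chaperone that brings the beta ring together and is degraded once the core is complete (ENSG00000132963, chromosome 13, 28659104 to 28678925), went from 204, 189, 195 and 177 CPM to 146, 133, 157 and 126 CPM. Its groups did not overlap either, and it fell by 26.6% (adjusted p = 0.00108).

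The assembly chaperones of the base and the activators moved less evenly in HCT116. Of the chaperones, which hold ATPases until the base is built and are absent from the finished particle, PSMD5 and PSMD9 were lower and PSMD10 was not called. PSMD5 had overlapping groups, with 75.9, 86.1, 81.3 and 88.9 CPM in control and 67.9, 77.6, 70.5 and 76.0 CPM with 2-MiCit (adjusted p = 0.0488). That call held in 1 of 8 fits that each left out a library, the one without control replicate 1, and the adjusted p of PSMD5 reached 0.128 without 2-MiCit replicate 1. The call of PSMD9 was lost without 2-MiCit replicate 2 (0.0619) or 4 (0.052). PSMD10, also known as gankyrin, had 77.0, 64.5, 66.3 and 65.0 CPM in control and 69.6, 63.7, 77.0 and 59.7 CPM with 2-MiCit (adjusted p = 0.913). The groups of PSMD10 overlapped over most of their range. PSME3, which forms the nuclear PA28 gamma activator, fell by 30.2%, from 263.5 ± 9.55 to 184 ± 7.63 CPM (mean ± SD of 4 libraries in each group; adjusted p = 5.17e-05). PSME4, the PA200 activator, had overlapping groups (161 ± 21 and 133 ± 17.4 CPM, adjusted p = 0.0745).

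The sum over 35 genes (those found in the tables other than PSMB3 and PSMB8 to PSMB10) shows the size of the change in each library of HCT116. It was 8478 ± 201 CPM in control and 6172 ± 361 CPM with 2-MiCit (SD, n = 4 per group), 72.8% of the control mean. Other measures moved with it. Summed epithelial markers were 4680 to 5260 CPM in control and 6130 to 7160 CPM with 2-MiCit, with CDH1, KRT8 and KRT18 higher and EPCAM and CDX2 lower of 6 markers tested. The slope of log2 CPM on log2 transcript length, taken for each library against the other 7 of its line, averaged -0.042 in control and 0.043 with 2-MiCit. Proteasome transcripts are short, with a median of 1553 bases over the 39 genes against 2976 over all genes tested in any line. With that length trend removed, 35 genes were lower and their median log2 fold change was -0.40. The part of the epithelial markers in the result was not tested.

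**Figure D2:**
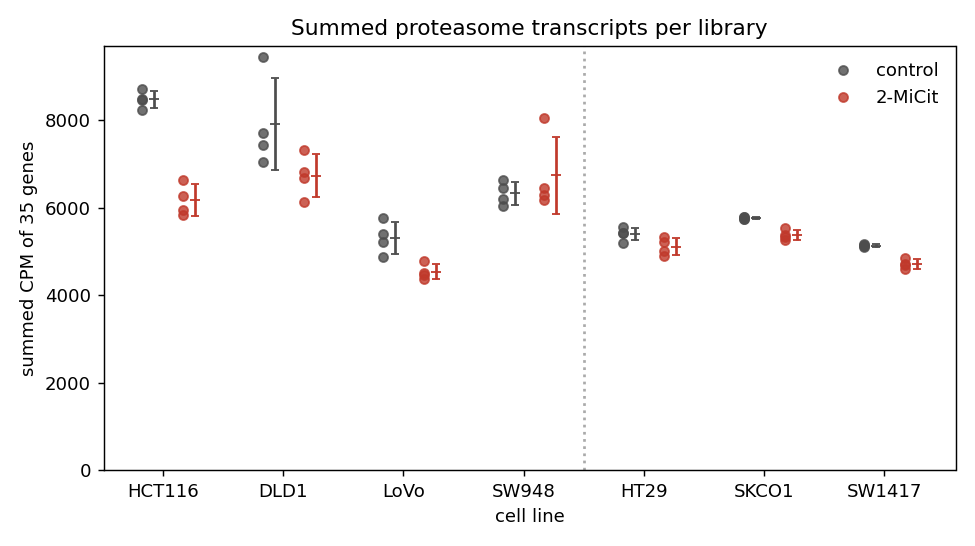
Summed CPM of 35 proteasome genes (vertical axis) in each of the 56 libraries, by line and treatment, with the mean and SD of each group of 4 beside its points, and a dotted line between the tables. The 4 treated HCT116 libraries, at 5841 to 6636 CPM, lie below the 4 controls at 8231 to 8722 CPM, and 1 treated SW948 library stands at 8050 CPM.

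DLD1 gave no call at the same threshold. Of 38 tested proteasome genes, 0 were lower and 0 higher by edgeR, against 0% of all tested genes lower and 0.148% higher; 12 were lower and 1 higher at an unadjusted p below 0.05, and DESeq2 called 1 lower. The median log2 fold change was -0.24 and 35 of the 38 were negative. In PSMB2, the constitutive gene with the smallest p, the libraries had 303, 285, 263 and 267 CPM in control and 214, 228, 251 and 231 CPM with 2-MiCit. These groups did not overlap (log2 fold change -0.28 ± 0.08 SE, adjusted p = 0.211 by edgeR), and PSMC5 and PSMD1 were the other 2 genes without overlap. Of all tested genes in DLD1, 826 of 13551 lay lower without overlap, a share near that of the proteasome genes. In PSMB5, 1 control library stood at 256 CPM, with the other controls at 165, 154 and 172 CPM and the treated libraries at 127, 150.4, 159 and 147 CPM. Control replicate 1 also had the lowest length slope of any DLD1 library, -0.317, and the median of the proteasome genes was -0.14 without it. The mean length slope was -0.076 in control and 0.076 with 2-MiCit, and with the trend removed the median was -0.10.

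LoVo had small negative fold changes in nearly all of the genes. Of 38 tested, 37 had a negative fold change, the median was -0.23, and 5 were lower and 0 higher by edgeR (0.702% of all tested genes were lower and 1.59% higher; 31 were lower and 0 higher at an unadjusted p below 0.05). The 5 were PSMB2, PSMC2, PSMD1, PSMD6 and PSMD14. PSMD6, a lid subunit, had 74.0, 82.3, 84 and 84.1 CPM in control and 62.1, 66.4, 68.6 and 68.4 CPM with 2-MiCit, without overlap (log2 fold change -0.29 ± 0.06 SE, adjusted p = 0.0393). PSMC2 fell by 18.3%, from 138 ± 9.85 to 113 ± 4.71 CPM (adjusted p = 0.0372). PSMD14 went from 118, 129, 131 and 132 CPM to 103, 105, 114 and 105 CPM, with every treated library under every control (adjusted p = 0.0442). PSMD1 fell by 14.4% (adjusted p = 0.0441) and PSMB2 by 14.2% (adjusted p = 0.0367). The count depended on single libraries: it was 24 without control replicate 1, 6 without control replicate 4 and 0 without any other library. DESeq2 called 21 lower and 0 higher.

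SW948 gave no call, and most of its fold changes were positive. Of 37 tested genes, 0 were lower and 0 higher by edgeR and by DESeq2, as were 0% and 0% of all tested genes by edgeR. At an unadjusted p below 0.05, 1 was higher and 0 were lower. The median log2 fold change was 0.11, and 9 were negative. PSMC6, an ATPase, had the smallest p, with 76.4, 82, 91.9 and 84.8 CPM in control and 87.4, 115, 102 and 90.7 CPM with 2-MiCit (adjusted p = 0.522). PSMB5 had 102, 101, 109 and 110.1 CPM in control and 109, 169.9, 113 and 123 CPM with 2-MiCit (adjusted p = 0.522). In both genes 2-MiCit replicate 2 was the highest library, and the groups overlapped. That library had the highest summed level of the line, 8050 CPM, and the lowest length slope, -0.255. The median was -0.01 without it and 0.01 with the length trend removed.

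HT29 had small changes that reached the threshold in 2 genes. Of 38 tested, 2 were lower and 0 higher by edgeR, against 3.02% and 4.65% of all tested genes, with 10 lower and 2 higher at an unadjusted p below 0.05 and 7 lower and 0 higher by DESeq2. The median log2 fold change was -0.07. PSMD14 had 132, 136, 128 and 125 CPM in control and 119.6, 114, 114 and 104 CPM with 2-MiCit, and the groups were separate (log2 fold change -0.20 ± 0.05 SE, adjusted p = 0.0236). PSMA7 had 411, 424, 419.7 and 412 CPM in control and 389, 393, 370.1 and 357 CPM with 2-MiCit, also without overlap (adjusted p = 0.04). Neither call held with every library left out in turn: the largest adjusted p was 0.0776 for PSMD14, without control replicate 1, and 0.123 for PSMA7, without control replicate 3. The count ran from 0, without any control library but replicate 4 or without 2-MiCit replicate 3 or 4, to 5 without 2-MiCit replicate 2. With the authors' own gene and library scaling, an alternative chosen after seeing the data, it was 0.

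In SKCO1, proteasome genes fell by small amounts. Of 39 tested, 23 were lower and 0 higher by edgeR, against 10.8% of all tested genes lower and 8.1% higher, with 23 lower and 0 higher by DESeq2 and 0 higher at an unadjusted p below 0.05. The median log2 fold change was -0.09. The calls took in all 11 base and lid subunits, 4 of 7 alpha, 3 of 7 constitutive beta and 3 of 5 ATPase genes, PSME3 and POMP, but 0 of the 3 base chaperones. PSMB2 went from 128, 125, 133 and 130.3 CPM to 103, 112, 117 and 115 CPM, without overlap (log2 fold change -0.21 ± 0.03 SE, adjusted p = 0.000926). POMP went from 73.9, 74.8, 78.6 and 71.9 CPM to 58.8, 67.0, 70.2 and 65.6 CPM, also without overlap, although 2-MiCit replicate 1 lay apart from the other treated libraries (adjusted p = 0.0173). PSMD6 fell by 11.7% (adjusted p = 0.00041) and PSME3 by 11%, from 279 ± 3.95 to 248 ± 3.73 CPM (mean ± SD of 4 libraries in each group; adjusted p = 0.000139). The summed level was 5765 ± 29.1 CPM in control and 5377 ± 117 CPM with 2-MiCit, 93.3% of control. With the authors' scaling 13 genes were lower, and POMP was not (adjusted p = 0.0541, and 0.0542 without control replicate 2).

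SW1417 was similar in size to SKCO1, with more of the core called, although no proteasome gene's response differed between them at the threshold. Of 37 tested genes, 22 were lower and 0 higher by edgeR, against 4.05% and 2.94% of all tested genes, and DESeq2 also called 22 lower and 0 higher; 0 were higher at an unadjusted p below 0.05. The median log2 fold change was -0.12. All 7 alpha subunits were lower, as were 3 of 7 constitutive beta, 3 of 5 ATPase, 2 of 3 base and 4 of 8 lid genes, both tested activators and POMP. PSMD1 had 251, 249, 247 and 256 CPM in control and 222, 212, 216 and 226 CPM with 2-MiCit, without overlap (log2 fold change -0.20 ± 0.02 SE, adjusted p = 0.000319). PSMB2 fell by 13.7%, from 154 ± 5.45 to 133 ± 2.95 CPM (adjusted p = 0.000438). PSMA3, an alpha subunit, went from 258, 263, 269 and 278 CPM to 231, 229.5, 231 and 246 CPM, with 1 treated library above the other 3 and all below the controls (adjusted p = 0.00144). PSMD14 fell by 11.7% (adjusted p = 0.00111) and POMP by 10.6% (adjusted p = 0.00855). PSMB5, the chymotrypsin-like site, was not called, with 259, 253, 253 and 253 CPM in control and 245, 239, 248 and 246 CPM with 2-MiCit (adjusted p = 0.14). With the authors' scaling 8 genes were lower, POMP not among them (adjusted p = 0.108), and 13 were lower without 2-MiCit replicate 3.

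**Figure D3:**
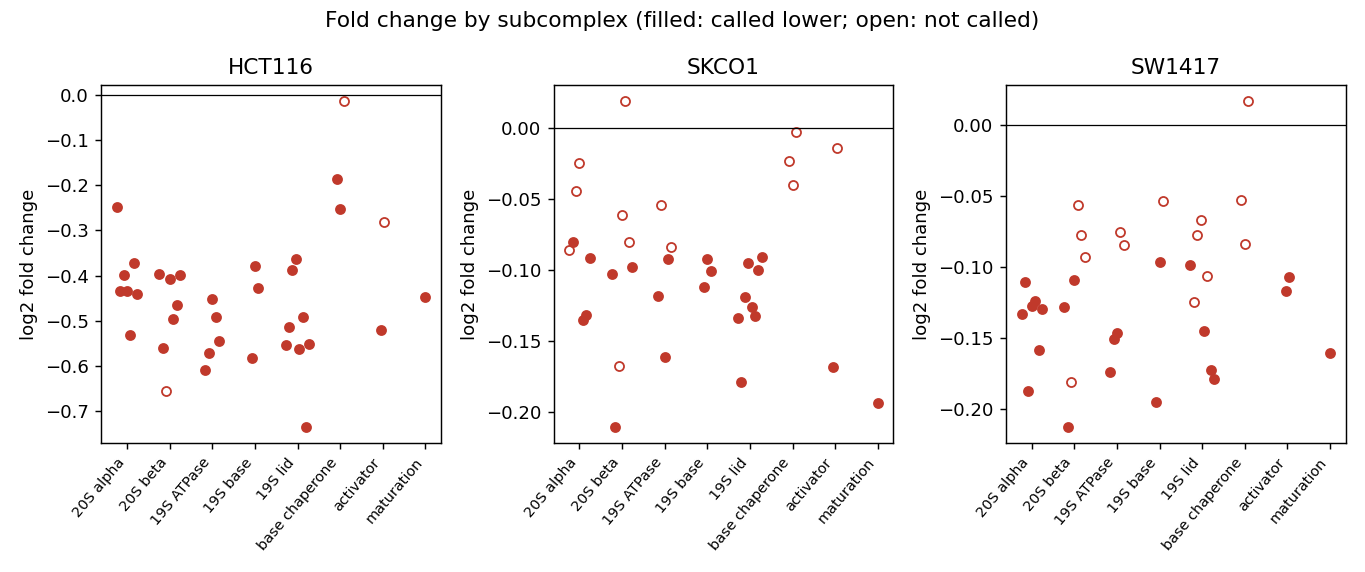
Log2 fold change (vertical axis, different range in each panel) of the constitutive proteasome genes by subcomplex in HCT116, SKCO1 and SW1417, filled where the gene was called lower and open where it was not. PSMD10, a base chaperone, is the gene nearest to 0 in each panel, at -0.01, 0.00 and 0.02.

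Across lines, PSMD14 was called most often, lower in 5 of 7 lines (HCT116, LoVo, HT29, SKCO1 and SW1417). PSMA7, PSMB2 and PSMD1 were lower in 4. Each of these 4 genes reached 4 lines only with a call in LoVo or HT29. No call in LoVo or HT29 held without every library in turn. In LoVo, the calls of PSMB2, PSMD1 and PSMD14 each held in 2 of 8 fits that left out a library, as did PSMA7 in HT29. Other calls of these genes also rested on 1 library. In SKCO1, the adjusted p of PSMD14 was 0.0641 without control replicate 2 and that of PSMA7 0.0528 without control replicate 3. In SW1417, PSMA7 had 0.0535 without 2-MiCit replicate 3. Of the 37 genes tested in all 7 lines, 18 were lower in at least 3 (48.6%, against 2.49% of the 11319 genes tested in all 7) and 4 in at least 4 (10.8% against 0.495%). The 2 never called were PSMB3 and PSMD10. A negative fold change in all 7 lines was seen in 6 genes (16.2% against 3.19%): PSMB2, PSMD3, PSMD6, PSMD11, PSMD12 and PSME3. None was higher in any line. PSMD13 and PSMC1, with the largest falls in HCT116, were also lower in SKCO1 (-0.10 ± 0.02 and -0.12 ± 0.02 SE on the log2 scale) and in SW1417 (-0.17 ± 0.03 and -0.17 ± 0.03 SE).

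**Figure D4:**
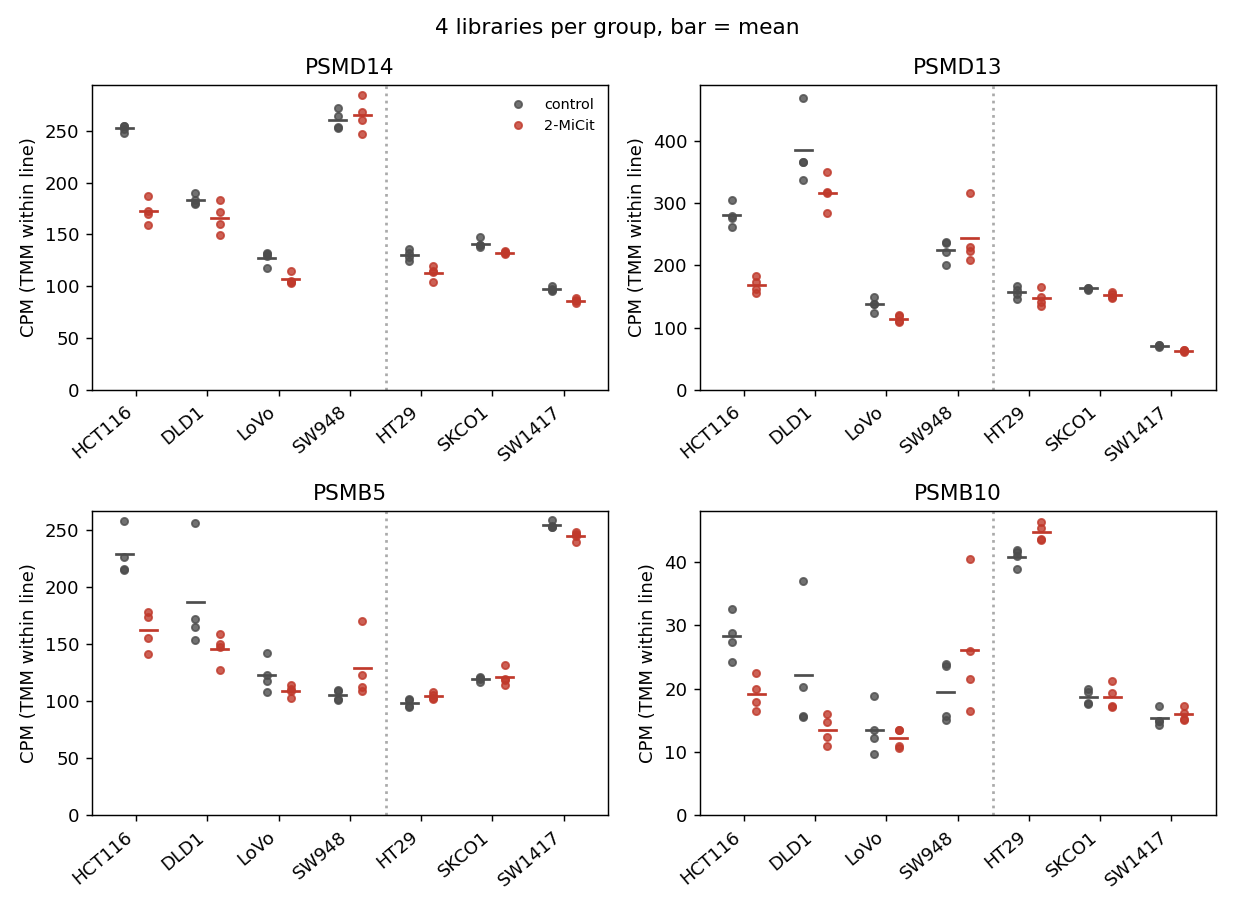
CPM of PSMD14, PSMD13, PSMB5 and PSMB10 (vertical axes from 0) in every library, 4 per group, with a bar at each group's mean, and a dotted line between the tables. PSMD14 shows separate groups in 5 lines, while PSMB10 is lower with 2-MiCit in HCT116 and higher in HT29, where its adjusted p was 0.0827.

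The difference in response between lines was tested directly within each table. In the first table, 19 of 39 proteasome genes had a response that differed between the 4 lines (edgeR interaction terms, adjusted over all genes), against 18% of all genes. At an unadjusted p below 0.05, 35 did. The smallest adjusted p were those of the lid genes PSMD11 (2.5e-06) and PSMD3 (6.33e-05). The second table gave 0 of 39, against 5.49% of all genes, and 4 at an unadjusted p below 0.05. The count for the first table moved with single replicates, to 7 without replicate 2 of every group and 9 without replicate 4, and it was 31 with the length trend removed.

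Pairs of lines, 9 in all, were compared in the same fits. HCT116 had the more negative response in 31 genes against SW948 (18.7% of all genes differed), in 10 against DLD1 (8.34%) and in 7 against LoVo (6.04%), and the more positive response in 0. The 10 against DLD1 were PSMB2, PSME3 and genes of the regulatory particle. No alpha subunit differed between HCT116 and DLD1 or LoVo. Against DLD1, the SE was 0.13 to 0.23 for alpha subunits and 0.06 to 0.1 for the 10 genes. An equal difference was therefore harder to call in alpha subunits. The median log2 fold change of the alpha subunits was -0.43 in HCT116, -0.37 in DLD1 and -0.25 in LoVo. With the length trend removed, they ranged from -0.58 to -0.17 in HCT116 and from -0.48 to -0.08 in DLD1. PSMD11, a lid subunit, went down in HCT116 from 255, 267, 264 and 274 CPM to 174, 181, 179 and 183 CPM. Its response was more negative there than in DLD1 by a log2 difference of -0.47 ± 0.06 SE (adjusted p = 7.74e-06), than in LoVo by -0.40 ± 0.06 (adjusted p = 6.71e-05) and than in SW948 by -0.48 ± 0.06 (adjusted p = 2.43e-06). PSMD14 differed likewise, by -0.39 ± 0.08, -0.29 ± 0.08 and -0.56 ± 0.08 SE (adjusted p = 0.00241, 0.0293 and 2.34e-05). PSMB5 differed between HCT116 and SW948 by -0.76 ± 0.18 SE (adjusted p = 0.0037). In the same order, these pairs gave 12, 4 and 2 genes without replicate 2 of every group, 29, 4 and 3 without replicate 3, 14, 4 and 2 without replicate 4, and 32, 18 and 12 with the length trend removed. DLD1 differed from SW948 in 12 genes, 11 more negative in DLD1 and 1, PSMB8, more positive (13.2% of all genes). PSMB8 did not pass the filter on low counts in SW948 alone. It had 1, 3, 0 and 61 counts in SW948 control libraries and 2, 0, 1 and 8 with 2-MiCit. Its SW948 response therefore rests on 1 control library near the detection limit. The count of 12 was 3 with the length trend removed, 0 without replicate 1, 2 or 4 and 30 without replicate 3. No gene differed between DLD1 and LoVo (0.506% of all genes; 1 at an unadjusted p below 0.05) or LoVo and SW948 (0.038%; 25 at an unadjusted p below 0.05). In the second table, 0 genes differed between HT29 and SKCO1 (4.14%), HT29 and SW1417 (3.44%) or SKCO1 and SW1417 (1.03%), with 3, 4 and 1 at an unadjusted p below 0.05.

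**Figure D5:**
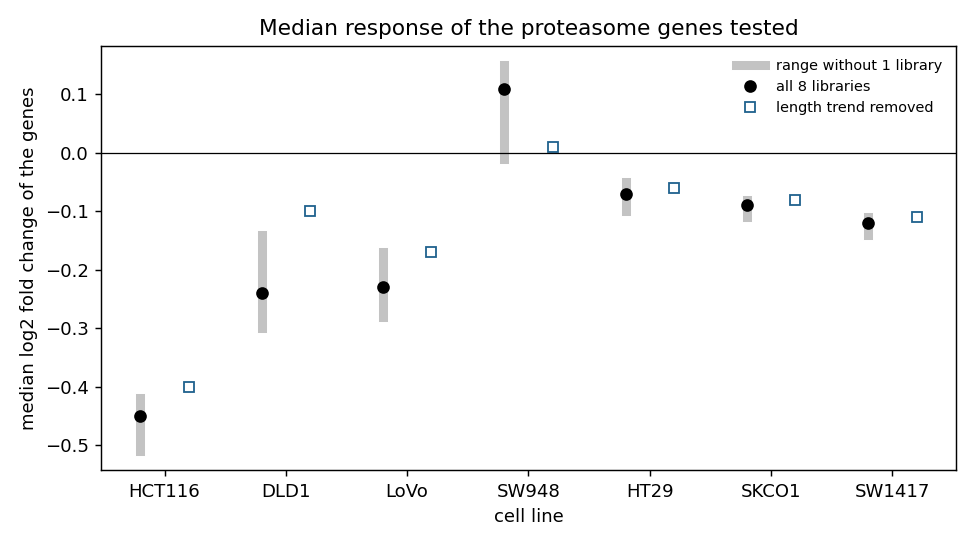
Median log2 fold change of the tested proteasome genes (vertical axis) in each line, from all 8 libraries (filled), with the range over fits that leave out 1 library (grey), and with the length trend removed (open squares). The median runs from -0.45 in HCT116 to 0.11 in SW948, whose value is 0.01 with the trend removed.

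The starting levels of the genes differed between lines, as did those of nearly all genes. In control libraries, 37 of the 39 genes found differed between lines in the first table (91.4% of all genes did). In the second it was 37 of the 39 found, with PSMB9 not tested (94.3% of all genes did). Both shares are near those of all genes. PSMB5 was at 218.5 ± 18.2 CPM in HCT116, 185 ± 46 in DLD1, 123 ± 13.4 in LoVo and 105 ± 4.41 in SW948 (SD, n = 4 each, scaled over the control libraries of the table). Its neighbours in that order, HCT116 with DLD1 and LoVo with SW948, did not differ at the threshold (adjusted p = 0.12 and 0.119), while DLD1 exceeded LoVo (adjusted p = 0.000834). In the second table PSMB5 was at 264 ± 3.99 CPM in SW1417, 115 ± 1.56 in SKCO1 and 96.1 ± 3.7 in HT29. PSMD14 was highest in SW948 (259 ± 10.1 CPM) and HCT116 (241 ± 3.92 CPM), which did not differ at the threshold (adjusted p = 0.0623).

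The immunoproteasome genes differed in how well they were detected. PSMB10, which replaces PSMB7 (ENSG00000205220, chromosome 16, 67934502 to 67937087), was the only one tested in all 7 lines. In HCT116 it had 32.6, 28.7, 27.4 and 24.2 CPM in control and 17.8, 16.5, 22.5 and 20.0 CPM with 2-MiCit, without overlap, and fell by 32% (log2 fold change -0.56 ± 0.12 SE, adjusted p = 0.00392). In HT29 it had 38.8, 41.5, 40.9 and 41.8 CPM in control and 43.6, 43.4, 45.4 and 46.2 CPM with 2-MiCit. All treated HT29 libraries lay above the controls, and the gene was not called (log2 fold change 0.13 ± 0.04 SE, adjusted p = 0.0827). In the other 5 lines its groups overlapped. The log2 fold change in DLD1 was -0.70 (adjusted p = 0.27), and the responses of HCT116 and DLD1 did not differ at the threshold (interaction fit, adjusted p = 0.879). The HCT116 call held in 7 of 8 alternative runs that kept all libraries. Per kilobase of transcript, PSMB10 made up 15.2% ± 0.499 of PSMB10 and PSMB7 together in HT29 control libraries and 17% ± 0.9 with 2-MiCit, and 8.72% ± 0.652 and 7.94% ± 1.13 in HCT116 (SD, n = 4 each).

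PSMB8 and PSMB9, which replace PSMB5 and PSMB6, were near the detection limit. PSMB8 was listed at 0 in all 8 HCT116 libraries and PSMB9 in all 8 SW1417 libraries, where 0 counts allow up to 0.155 to 0.201 CPM and 0.0661 to 0.0929 CPM (3 counts of a library's total, for counting error only). In DLD1, PSMB8 had 0.579, 0.345, 0.695 and 0.504 CPM in control and 6.72, 6.21, 2.29 and 0.346 CPM with 2-MiCit. The treated libraries spread from the control level to far above it, and the gene was not called (log2 fold change 2.86 ± 0.76 SE, adjusted p = 0.197). In the other lines PSMB8 and PSMB9 had at most 149 and 42 counts. PSMB8 was also tested in SKCO1 and HT29, with log2 fold changes of 1.63 and -0.28. PSMB9 was tested in SKCO1 and LoVo, with 1 and -0.17, and neither gene was called in any line. Both genes lie in the major histocompatibility complex, and whether reads of theirs were counted under identifiers that carry no symbol was not tested. PSMB3, a constitutive beta subunit, was listed at 0 in 6 of the 32 libraries of the first table, where PSMB4 had 2334 to 5885 counts in every library, so its fold changes there are not interpretable. In the second table PSMB3 had 1584 to 4670 counts and was not called in any line.

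Other genes of the ubiquitin-proteasome pathway were read from lists. Of 15 tested genes for further proteasome subunits, assembly chaperones and bound cofactors, 8 were lower and 0 higher in HCT116 (against 18% and 19% of all tested genes there), 5 and 0 in SKCO1 (10.8% and 8.1%), 1 and 0 in LoVo (0.702% and 1.59%) and in SW1417 (4.05% and 2.94%), and 0 in the other lines. These shares of all tested genes are also the ones against which the lists below are to be read, with 3.02% lower and 4.65% higher in HT29. ADRM1, the ubiquitin receptor of the base, fell with a log2 fold change of -0.55 ± 0.06 SE in HCT116 (adjusted p = 9.82e-05), PSMG1, a chaperone of the alpha ring, fell by 0.48 ± 0.08 there (adjusted p = 0.00113), and UCHL5, a deubiquitinase bound to ADRM1, by 0.20 ± 0.04 in SKCO1 (adjusted p = 0.00164). Of 10 genes of the VCP segregase, which extracts proteins for degradation, 7 were lower and 1 higher in HCT116, 3 and 0 in SKCO1, 2 and 1 in SW1417 and 1 and 0 in HT29. VCP fell by 0.50 ± 0.04 on the log2 scale (adjusted p = 3.39e-05), its cofactor NSFL1C by 0.50 ± 0.05 (adjusted p = 7.81e-05) and NPLOC4 by 0.36 ± 0.06 (adjusted p = 0.000674), all in HCT116. Of 11 ubiquitin, activating enzyme and shuttle genes, 5 were lower in HCT116, 4 in SKCO1, 2 in HT29, 1 in SW1417 and 0 higher in any line. RAD23B, a shuttle, fell by 0.13 ± 0.02 in SKCO1 (adjusted p = 0.000914), and the ubiquitin gene UBB fell by 0.40 ± 0.08 in HCT116 (adjusted p = 0.00261).

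Calls among the regulators of proteasome genes went in both directions. The NFE2L1 pathway, with 8 tested genes, had 2 higher and 2 lower in HCT116, 1 higher in HT29, 1 higher and 1 lower in SKCO1 and none called in the other 4 lines. Each of these counts in HCT116 and SKCO1 is near the share of all tested genes called in its direction (19% higher and 18% lower, and 8.1% and 10.8%). MAFK, a small MAF partner of NFE2L1, fell by 0.33 ± 0.05 on the log2 scale in HCT116 (adjusted p = 0.00104), while its relatives MAFG in SKCO1 (0.14 ± 0.03, adjusted p = 0.0025) and MAFF in HCT116 (0.25 ± 0.06, adjusted p = 0.0108) rose. NFE2L1 itself, named after its values were seen, was called in no line, with log2 fold changes of 0.00 in HCT116 and -0.18 to 0.29 over the 7 lines. Of the major histocompatibility complex class I antigen presentation genes, whose products use peptides that the proteasome makes, HCT116 had 4 higher and 2 lower of 10 tested (against 19% and 18% of all tested genes, so that the lower count is near the background), HT29 had 1 lower of 13 (3.02%), and the other lines had none. The chaperones CALR and PDIA3 fell (-0.63 ± 0.05 and -0.41 ± 0.05 SE, adjusted p = 3.23e-05 and 0.000146) and the peptide trimmer ERAP1 rose (0.92 ± 0.11, adjusted p = 0.00019), all in HCT116. Of 8 regulators of the interferon response, 4 were higher in HCT116 (against 19% of all tested genes), 1 was higher in SKCO1 (8.1%) and 1 was lower in SW1417 (4.05%). IRF2 rose in HCT116 (0.67 ± 0.15 SE, adjusted p = 0.00528), STAT2 rose in SKCO1 (0.16 ± 0.04, adjusted p = 0.0136) and IFNGR1 fell in SW1417 (-0.16 ± 0.03, adjusted p = 0.00493).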

How the data were processed

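RNA was sequenced from 56 libraries, 4 in each of 14 groups. The submitters' processing notes list Salmon 1.5.0, Trimmomatic 0.39, bcl2fastq 2.20.0 and DESeq2, and name GRCh38.p13 as the build. A stranded mRNA kit was used, per the labels' protocols. Only the 4 lines of the first table are named in the growth protocol. How long cells were treated was not found in the labels. The authors deposited raw counts per gene in 2 tables, tested here, and normalized counts (a signal on a linear scale) used only to recover their scaling. In the second table that scaling varied from gene to gene within a library. Salmon shares reads between near-identical transcripts, so genes with pseudogenes are uncertain.

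Symbols, coordinates and transcript lengths came from GENCODE 29 (GRCh38), with the longest principal transcript taken for length. Identifiers without a symbol, 1103 and 1126, held 3.05% to 3.88% of counts and stayed in the tests unnamed.

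Each line was tested alone in edgeR 4.0.16 (R 4.3.3): filterByExpr, TMM factors and the robust quasi-likelihood test, two-sided, with Benjamini-Hochberg adjustment over all genes tested and calls below 0.05. Adjusted p-values are from this test unless another is named. Interaction terms of 1 fit per table tested differences between lines, and lines of different tables were not compared. The test was checked on simulated counts. Levels are CPM with TMM factors.

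Alternatives were other size factors, DESeq2 1.42.0, no filter or at least 5 CPM in 4 libraries, a replicate block, removal of each library's length trend (loess, span 0.5), 1 fit per table, leaving out each library and, chosen after seeing the data, the authors' scaling. The genes and lists were chosen with earlier results of these data known, so no test over a list is given. Named with full statistics were, per line, up to 4 called genes with the largest change and no overlap between groups (the 2 smallest p where none was called), those called in the most lines, the catalytic pairs, POMP and up to 3 called genes per other list; PSMB3, PSMD5, PSMD10, PSMD11, PSME3 and PSME4 were described after their values were seen. Of the genes this rule selects, 1 is not reported here.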

Additional observations from a re-analysis of the deposited data

Results flagged for a closer look

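Single libraries stood apart from the other 3 of their group in 8 of 192 groups of values checked (4.17%), where chance gives about 1 in 20. Replicate 2 of SW948 with 2-MiCit was apart in PSMA7 (810.7 CPM, against 434, 493 and 481 CPM), in PSMC1 (155.3 CPM) and in the summed level of 35 proteasome genes (8050 CPM). It also had the lowest length slope of that line. Replicate 2 of HT29 was apart in PSMB6 in both groups, at 85.68 CPM in control and 82.14 CPM with 2-MiCit. The others were PSMA3 in replicate 4 of SW1417 with 2-MiCit (246.1 CPM), PSMB5 in control replicate 1 of SW1417 (258.6 CPM) and PSMB7 in replicate 3 of SKCO1 with 2-MiCit (175.4 CPM).

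The response to 2-MiCit differed between HCT116, DLD1, LoVo and SW948 in 19 proteasome genes by the interaction terms of the edgeR fit, 11 of which the naming rule selects. Among those 11, the adjusted p was 0.000398 for PSMB2, 0.0147 for PSMB5, 0.0137 for PSMC1, 0.000356 for PSMC2, 0.0141 for PSMC6, 0.000565 for PSMD1 and 0.00314 for PSMD6. For PSMD13 it was 0.00122, for PSMD14 0.000159, for PSME3 0.0131 and for POMP 0.0416. In each of the 11, HCT116 had the most negative fold change of the 4 lines.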

How the results depend on the processing

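No called gene changed sign under any alternative run, while the median of SW948 went from 0.11 to -0.01 without 2-MiCit replicate 2. HCT116 gave 27 lower genes in 1 fit per table and 33 to 35 under the others, and 32 to 35 with 1 library left out; 32 of the 34 calls held without every library in turn. DLD1 gave 1 by DESeq2 and 4 in 1 fit per table, and 0 with 1 library left out. LoVo gave 21 by DESeq2, 3 with no filter, 14 with the length trend removed, 3 in 1 fit per table and 0 to 24 with 1 library left out. HT29 gave 7 by DESeq2, 11 in 1 fit per table, 0 with the authors' scaling and 0 to 5 with 1 library left out. SKCO1 gave 15 in 1 fit per table, 13 with the authors' scaling and 18 to 26 with 1 library left out. SW1417 gave 11, 8 and 13 to 28 in the same order. SW948 gave 0 throughout. Genes whose response differed between lines of the first table numbered 31 with the length trend removed and 7 to 25 with 1 replicate number left out. The cause of these shifts was not tested, except that leaving out a library reduces the samples.

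Correlations between same-numbered libraries ran from -0.52 to 0.40. They were all positive in HCT116 (0.08 to 0.40) and SW1417 (0.01 to 0.11), but no line had all 4 above 0.1, the level required here to treat the numbers as pairs. In no line did each control library correlate best with the treated library of its number. With a replicate block, LoVo gave 7 lower genes and HT29 gave 9 lower and 1 higher. The replicate block with the length trend removed gave 19 in LoVo, and 6 lower and 2 higher in HT29. The block moved no other count per line by over 1.5 times. It left 13 genes with a response that differed between lines of the first table, and 21, 7 and 3 for HCT116 against SW948, DLD1 and LoVo and 0 for DLD1 against SW948.

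PSMB8 had 0 to 149 counts per library and PSMB9 0 to 42, so both were measured with large counting error.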
